A study of Mus musculus with 9 samples.

Results

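The genes described here make ribosomes. Their products transcribe ribosomal RNA, modify and cleave it, and assemble it with ribosomal proteins into the small 40S and the large 60S subunit, mostly in the nucleolus. Cells that grow and divide, among them thymocytes and leukemia cells, need this pathway, and many of its genes are known targets of the transcription factor MYC. The list held 49 genes, of which 48 had an Affymetrix probe set that the platform annotation assigns to that gene alone. The remaining gene, Mrto4, shares its probe set with pseudogenes and was not analysed here. The whole table gave 18161 genes, of which 13288 were bright enough to be tested, and all 48 ribosome biogenesis genes were among them.

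The arrays came from a mouse study of how T-ALL, a leukemia of immature T cells, arises, and of the non-malignant effects of too much NOTCH1, the receptor that directs T cell development and drives many such leukemias. Sorted cells were measured in 3 groups of 3 samples, NIC Tumor, Abnormal non-malignant and Control, with 1 array per sample. The labels give neither what NIC stands for, nor genotype, strain, age, treatment or sorted population, nor how any transgene was driven, and they do not say whether samples came from separate animals or whether tumors arose as separate clones. The p-values therefore measure only the spread between these samples, which may be technical. The T cell receptor complex genes Cd3e, Cd3d and Cd3g stood between 11.49 and 13.26 on the log2 scale on every array. However, 7 of 14 tested T lineage markers fell in tumors against controls (7.19% of all genes tested did). They included Cd247, of the same complex (-2.09 ± 0.34 SE, adjusted p = 0.00489), Cd4 (-2.12 ± 0.48 SE, adjusted p = 0.0187) and Rag1 (-4.4 ± 0.88 SE, adjusted p = 0.0116), all chosen after their values were seen. The difference of Rag1 lay mostly in tumors 2 and 3, with 11.5, 7.62 and 7.36 on tumors 1, 2 and 3 and 13.22, 13.59 and 12.89 on the controls. Values are log2 signals throughout, so a difference of 1 is a 2-fold change, and levels of different probe sets are not compared with each other.

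Several arrays stood apart from their group. The SD of the gene-by-gene differences was smallest between non-malignant arrays 2 and 3 (0.156), and next between controls 1 and 3 (0.302). Control 2 differed from the other controls by 0.412 and 0.411. Non-malignant array 1 differed from non-malignant arrays 2 and 3 by 0.38 and 0.368. Tumor 1 lay nearer to the non-malignant arrays (0.462 to 0.469) than to tumors 2 and 3 (0.625 and 0.791). Tumors 2 and 3 were no closer pair, at 0.624 from each other. Within a group, the root mean square SD of the 48 genes was 0.44 in tumors, 0.23 in non-malignant samples and 0.24 in controls, against 0.49, 0.23 and 0.27 over all genes tested.

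The comparison of NIC tumors with controls asks how the malignant state differs in the machinery of ribosome production. Most ribosome biogenesis genes were higher in the tumors, in every role group from RNA polymerase I to the assembly factors of both subunits. The largest rises were those of Mybbp1a, a nucleolar protein that binds Myb and takes part in ribosomal RNA processing (5.11-fold), Rrp12, a 40S maturation factor (4.4-fold), Nhp2, a core protein of pseudouridine-guiding particles (3.9-fold), and Fbl, the methyltransferase fibrillarin (3.47-fold). Of the 48 genes, 34 rose, none fell and 14 were not called, a gene being called when its limma p, adjusted by Benjamini-Hochberg over all 13288 genes, was under 0.05. The share that rose was 70.8%, against 8.49% of all genes tested. By the same test 7.19% of all genes fell. At an unadjusted p under 0.05, 41 were higher (17.4% of all genes tested were) and 1, Emg1, was lower. The median log2 fold change was 1.09, against 0.06 over all genes tested. It was above 0 in 45 genes (56.4% of all genes tested) and at least 1 in 29 (680 of the 13288 genes tested). All 3 tumors lay above all 3 controls in 42 of the genes (87.5%, against 18.2% of all genes tested), and below them only in Emg1 (14.3% of all genes tested). In bulk samples such as these, a change in the make-up of the sorted cells and a change in RNA per cell cannot be told apart.

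The count of 34 rested in part on single arrays. It was 19 without control 2 (4.02% of all genes tested were called higher in that fit), 22 without tumor 2 (5.19%) and 21 with only the tumors and controls in the fit (3.77%). The share over all genes thus fell with it. On the probe set used for each gene, the call held in all 9 fits that left out 1 array for 19 genes. These were Polr1a, Polr1b, Polr1c, Fbl, Nhp2, Nolc1, Wdr43, Wdr75, Utp20, Rrp12, Rcl1, Tsr1, Bop1, Pes1, Nop16, Ebna1bp2, Rrp1b, Mybbp1a and Gnl3.

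**Figure D1:**
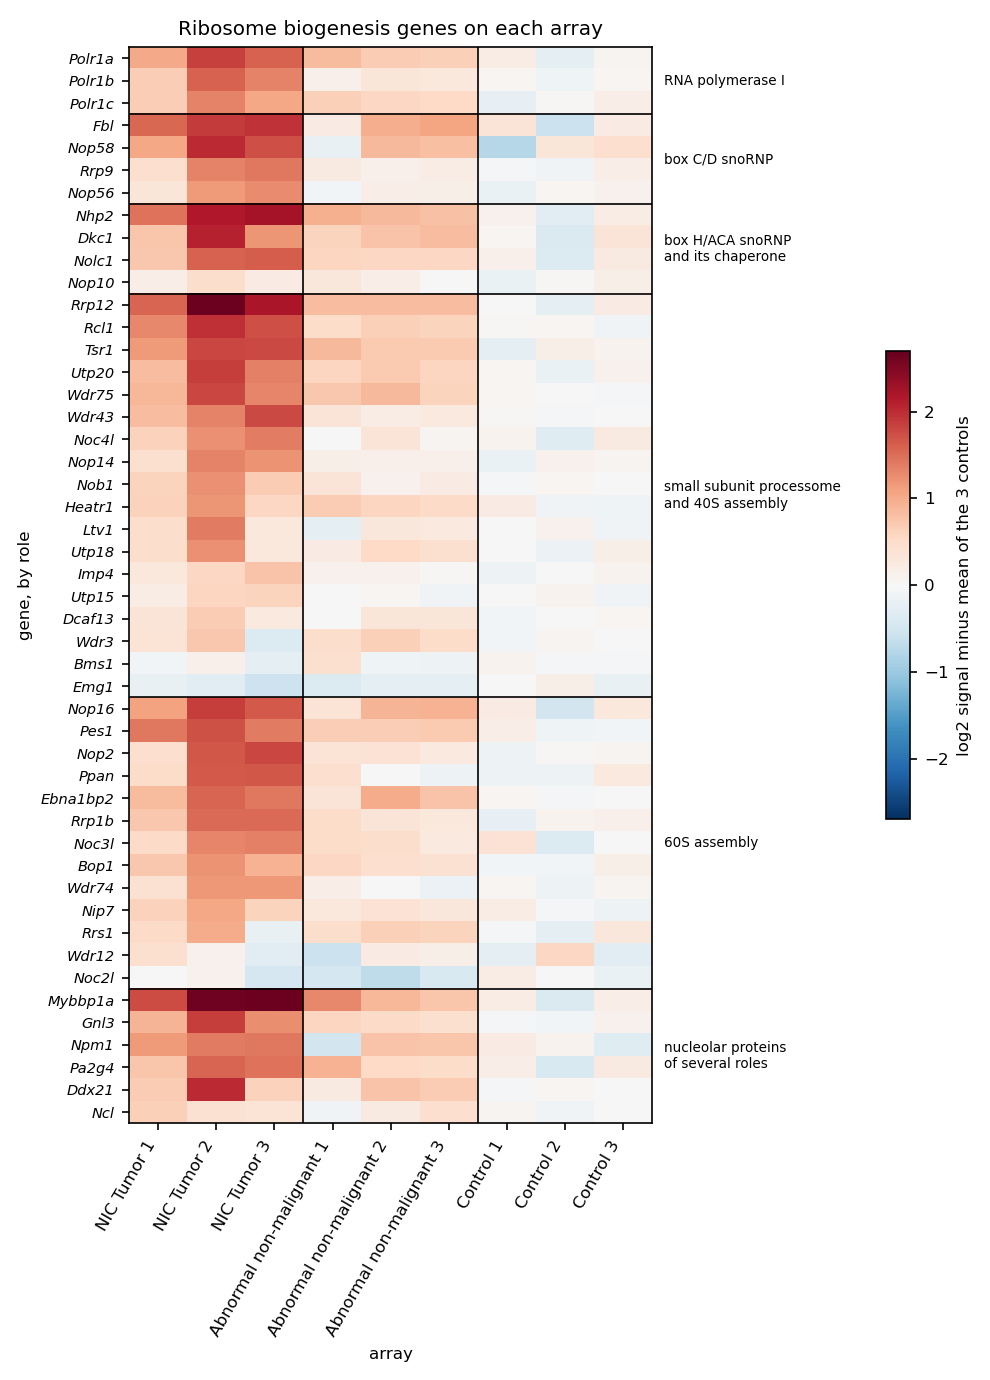
Log2 signal of the 48 genes (rows, by role and then by the tumor-control difference) on the 9 arrays (columns), minus the mean of the 3 controls. Red cells fill most rows of tumors 2 and 3, tumor 1 is paler, and the non-malignant columns are paler still, with medians over the genes of 0.65, 1.37 and 1.3 on tumors 1, 2 and 3 and 0.36 to 0.49 on the non-malignant arrays.

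Because the genes moved together, their promoters were searched for the E-box CACGTG, the preferred site of MYC with its partner MAX. A window from 250 bases before to 50 bases after the annotated start was on hand for 42 of the 48 genes (RefSeq, GRCm38.p6), 3 of them with several windows. The E-box, which reads the same on both strands, was found in 9 of these 42 genes (21.4%), against 11% of the tested genes with a window and 8.09% of all genes in the promoter table. The 9 were Pes1, Mybbp1a, Tsr1, Wdr43, Utp20, Nop2, Imp4, Utp18 and Ltv1. The 4 of them with the smallest adjusted p between tumors and controls are shown, 5′ to 3′ in the direction of the gene, with the E-box in capitals. All 4 lie on the plus strand, and positions count the transcript start as 1. The Pes1 window is chr11:3963725-3964024, with the E-box from position 3. That of Mybbp1a is chr11:72441077-72441376, with the E-box from position 41. That of Tsr1 is chr11:74897830-74898129, with the E-box from position 25. That of Wdr43 is chr17:71615965-71616264, with the E-box from position 18.
Pes1: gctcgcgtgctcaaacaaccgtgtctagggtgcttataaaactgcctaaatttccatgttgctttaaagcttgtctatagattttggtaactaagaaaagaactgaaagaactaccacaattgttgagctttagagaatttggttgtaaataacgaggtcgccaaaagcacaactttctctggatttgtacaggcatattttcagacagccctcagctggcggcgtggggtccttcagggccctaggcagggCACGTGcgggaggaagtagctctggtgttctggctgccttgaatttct
Mybbp1a: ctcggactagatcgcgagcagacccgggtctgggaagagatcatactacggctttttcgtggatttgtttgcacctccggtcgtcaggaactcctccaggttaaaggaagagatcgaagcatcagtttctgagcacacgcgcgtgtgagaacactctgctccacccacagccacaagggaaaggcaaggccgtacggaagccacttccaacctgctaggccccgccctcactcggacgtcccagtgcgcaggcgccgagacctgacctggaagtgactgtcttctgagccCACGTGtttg
Tsr1: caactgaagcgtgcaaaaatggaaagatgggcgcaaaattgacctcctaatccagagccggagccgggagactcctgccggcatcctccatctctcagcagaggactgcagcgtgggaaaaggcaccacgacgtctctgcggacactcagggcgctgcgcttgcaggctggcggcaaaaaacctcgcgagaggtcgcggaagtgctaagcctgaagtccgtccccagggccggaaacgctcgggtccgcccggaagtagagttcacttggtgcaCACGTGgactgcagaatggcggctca
Wdr43: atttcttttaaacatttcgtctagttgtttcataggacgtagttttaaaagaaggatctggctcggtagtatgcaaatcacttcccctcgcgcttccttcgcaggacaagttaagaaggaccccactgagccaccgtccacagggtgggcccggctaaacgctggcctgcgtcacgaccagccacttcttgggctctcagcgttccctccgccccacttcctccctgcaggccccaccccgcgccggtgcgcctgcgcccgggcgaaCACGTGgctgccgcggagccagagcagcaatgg

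In these 4 windows the E-box lay downstream of the start, in the first transcribed bases. Utp20 and Ltv1 carried it downstream too, and Nop2 (-60), Utp18 (-20) and Imp4 (-121) upstream. Of the 9 genes with the E-box, 6 rose in the tumors, with a median log2 fold change of 1.32 and a range of 0.54 to 2.35. Of the 33 genes with a window and no E-box in it, 24 rose, with a median of 1.07 and a range of -0.35 to 1.96. In non-malignant samples against controls the median was 0.4 in genes with the E-box and 0.38 in genes without. The difference between the sets was not tested, and a match of letters is not a binding site. Other motifs were also more common in the windows of the ribosome biogenesis genes than in those of all tested genes. CACGCG or its reverse complement CGCGTG was found in 28.6% of the 42 genes and 18.5% of tested genes, and CCGGAAG or CTTCCGG, the core of ETS factor sites, in 40.5% of the 42 genes and 18.3% of tested genes. Base composition was not matched between the sets. CACGCG differs from CACGTG in 1 letter, so both cannot lie on the same 6 bases.

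RNA polymerase I transcribes the ribosomal RNA genes, and all 3 of its subunits on the list rose in the tumors. The largest subunit, Polr1a, stood at 8.1, 8.92 and 8.67 on NIC Tumor arrays 1, 2 and 3, 7.92, 7.76 and 7.72 on the non-malignant arrays and 7.26, 6.81 and 7.14 on the controls. Its log2 fold change between tumors and controls was 1.5 ± 0.23 (SE; adjusted p = 0.00363). The second largest subunit, Polr1b, stood at 6.71, 7.65 and 7.39 on NIC Tumor arrays 1, 2 and 3, 6.18, 6.37 and 6.33 on the non-malignant arrays and 6.1, 5.94 and 6.1 on the controls, a tumor-control difference of 1.2 ± 0.22 (SE; adjusted p = 0.00875). In both genes every tumor lay above every non-malignant array and these above every control, with tumor 1 the lowest tumor. Polr1c, which RNA polymerase III uses as well, had values of 9.3, 9.96 and 9.67 in the tumors, 9.28, 9.18 and 9.16 in the non-malignant samples and 8.41, 8.67 and 8.81 in the controls. It rose by 1.01 ± 0.2 (SE; adjusted p = 0.011), and the 3 groups again did not overlap.

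Box C/D particles guide 2′-O-methylation of ribosomal RNA, and all 4 genes of this group rose. Fbl, which encodes the methyltransferase itself, stood at 11.73, 12.06 and 12.13 on NIC Tumor arrays 1, 2 and 3, 10.4, 11.17 and 11.24 on the non-malignant arrays and 10.52, 9.6 and 10.41 on the controls, a tumor-control difference of 1.8 ± 0.29 (SE; adjusted p = 0.00489). The tumors lay within a narrow range, whereas non-malignant array 1 lay among the controls and control 2 lay well under the others. Nop56, a scaffold protein of the particle, had 9.67, 10.48 and 10.62 in the tumors, 9.27, 9.52 and 9.49 in the non-malignant samples and 9.17, 9.4 and 9.46 in the controls, the smallest rise of the group (0.92 ± 0.24 SE, adjusted p = 0.0333). All tumors lay above the other arrays, whose 2 groups overlapped, and the call of Nop56 ended in 7 of the 9 fits without 1 array. The partner scaffold Nop58 had 9.46, 10.44 and 10.17 in the tumors, 8.22, 9.3 and 9.23 in the non-malignant samples and 7.64, 8.75 and 8.88 in the controls, a rise of 1.6 ± 0.41 (SE; adjusted p = 0.0292). In each group its array 1 was the lowest by 0.71 or more, a pattern chosen after the values were seen. Rrp9, which belongs to the U3 particle needed for the first cleavages, rose by 1.07 ± 0.25 (SE; adjusted p = 0.0204).

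Box H/ACA particles guide the conversion of uridine to pseudouridine. Nhp2 stood at 10.8, 11.5 and 11.57 on NIC Tumor arrays 1, 2 and 3, 10.28, 10.21 and 10.13 on the non-malignant arrays and 9.44, 9.02 and 9.52 on the controls, a tumor-control difference of 1.96 ± 0.23 (SE; adjusted p = 0.00111). The 3 groups were separate, with the tumors on top and a gap of 0.52 between the lowest tumor and the highest non-malignant array. The pseudouridine synthase Dkc1, mutated in dyskeratosis congenita, rose by 1.33 ± 0.32 (SE; adjusted p = 0.0229), and Nolc1, a chaperone of these particles, by 1.32 ± 0.26 (SE; adjusted p = 0.0115). The smallest core protein, Nop10, had 11.35, 11.64 and 11.39 in the tumors, 11.47, 11.35 and 11.17 in the non-malignant samples and 10.99, 11.2 and 11.33 in the controls and was not called (0.28 ± 0.15 SE, adjusted p = 0.217). All 3 tumors lay above all 3 controls there too, but by as little as 0.02 for the closest arrays.

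The small subunit processome folds and cuts the precursor of the 18S ribosomal RNA. Of the 18 genes of this group and of later 40S assembly, 10 rose in the tumors and 8 were not called. Rrp12 stood at 7.16, 8.22 and 7.78 on NIC Tumor arrays 1, 2 and 3, 6.42, 6.42 and 6.42 on the non-malignant arrays and 5.6, 5.34 and 5.81 on the controls, a tumor-control difference of 2.14 ± 0.25 (SE; adjusted p = 0.0011). Rcl1, which acts with the GTPase Bms1 in yeast, had values of 8.9, 9.58 and 9.35 in the tumors, 8.1, 8.24 and 8.2 in the non-malignant samples and 7.64, 7.65 and 7.5 in the controls, a difference of 1.68 ± 0.19 (SE; adjusted p = 0.00103). In both genes the non-malignant arrays lay within 0.14 of each other, between tumors and controls. Wdr43, of the subcomplex that joins transcription to processing, stood at 9.55, 10.07 and 10.5 on NIC Tumor arrays 1, 2 and 3, 9.07, 8.92 and 8.99 on the non-malignant arrays and 8.76, 8.67 and 8.73 on the controls (1.32 ± 0.22 SE, adjusted p = 0.00635). All 3 tumors lay above the other arrays. Wdr75 of the same subcomplex had, on the probe set used, 8.03, 8.94 and 8.46 in the tumors, 7.86, 8.01 and 7.75 in the non-malignant samples and 7.2, 7.12 and 7.11 in the controls (1.33 ± 0.22 SE, adjusted p = 0.00567). Heatr1, another member of it, had 9.07, 9.64 and 9 in the tumors, 9.13, 9.03 and 8.96 in the non-malignant samples and 8.68, 8.35 and 8.33 in the controls (0.78 ± 0.2 SE, adjusted p = 0.0314). Its tumors lay above the controls but overlapped the non-malignant arrays, and its call ended in 5 of the 9 fits without 1 array. The other genes of the group that rose were Tsr1, a GTPase-like 40S factor (1.58), the large scaffold Utp20 (1.36), Noc4l (1.07) and its partner Nop14 (1), and Nob1, the endonuclease that forms the 3′ end of 18S RNA (0.84).

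Among the 8 uncalled genes of this group, in 5 the tumors lay above the controls, by smaller or less even margins. Utp15, of the same subcomplex as Wdr43, stood at 8.78, 9.17 and 9.19 on NIC Tumor arrays 1, 2 and 3, 8.58, 8.65 and 8.5 on the non-malignant arrays and 8.58, 8.69 and 8.49 on the controls (0.46 ± 0.17 SE, adjusted p = 0.0938). Imp4, a protein of the U3 particle, had 8.98, 9.25 and 9.48 in the tumors, 8.82, 8.82 and 8.74 in the non-malignant samples and 8.57, 8.72 and 8.8 in the controls (0.54 ± 0.17 SE, adjusted p = 0.0627). Tumor 1 was the lowest tumor in both, and each was called when tumor 1 was left out, at 0.6 and 0.67. Utp18 had 8.66, 9.43 and 8.47 in the tumors, 8.42, 8.72 and 8.63 in the non-malignant samples and 8.18, 8.04 and 8.35 in the controls (0.67 ± 0.25 SE, adjusted p = 0.0993). Ltv1, a late 40S factor, had 8.92, 9.85 and 8.73 in the tumors, 8.21, 8.75 and 8.71 in the non-malignant samples and 8.44, 8.56 and 8.36 in the controls (0.71 ± 0.29 SE, adjusted p = 0.123). In both, tumor 2 stood highest and tumor 3 overlapped the non-malignant arrays, as tumor 1 did for Utp18. Dcaf13 had 10.31, 10.64 and 10.22 in the tumors, 9.97, 10.28 and 10.29 in the non-malignant samples and 9.88, 9.98 and 10.01 in the controls (0.43 ± 0.17 SE, adjusted p = 0.11). The 3 remaining genes showed little or no excess in the tumors. Wdr3, of the same subcomplex as Utp18, stood at 9.28, 9.63 and 8.54 on NIC Tumor arrays 1, 2 and 3, 9.38, 9.56 and 9.4 on the non-malignant arrays and 8.84, 8.99 and 8.9 on the controls (0.24 ± 0.25 SE, adjusted p = 0.537), with tumor 3 under every other array. Bms1 stood at 11.03, 11.24 and 10.87 on NIC Tumor arrays 1, 2 and 3, 11.55, 10.99 and 10.98 on the non-malignant arrays and 11.2, 11.07 and 11.06 on the controls, and the 95% interval of its tumor-control difference ran from -0.47 to 0.34. Emg1, the methyltransferase Nep1, stood at 11.99, 11.9 and 11.65 on NIC Tumor arrays 1, 2 and 3, 11.84, 11.93 and 11.94 on the non-malignant arrays and 12.21, 12.36 and 12.01 on the controls. It was the only one of the 48 genes whose tumors all lay below the controls (-0.35 ± 0.13 SE, adjusted p = 0.102), and its non-malignant arrays did so as well. Emg1 was called lower when tumor 1 was left out, and its difference ran from -0.44 to -0.25 over the 9 fits without 1 array.

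**Figure D2:**
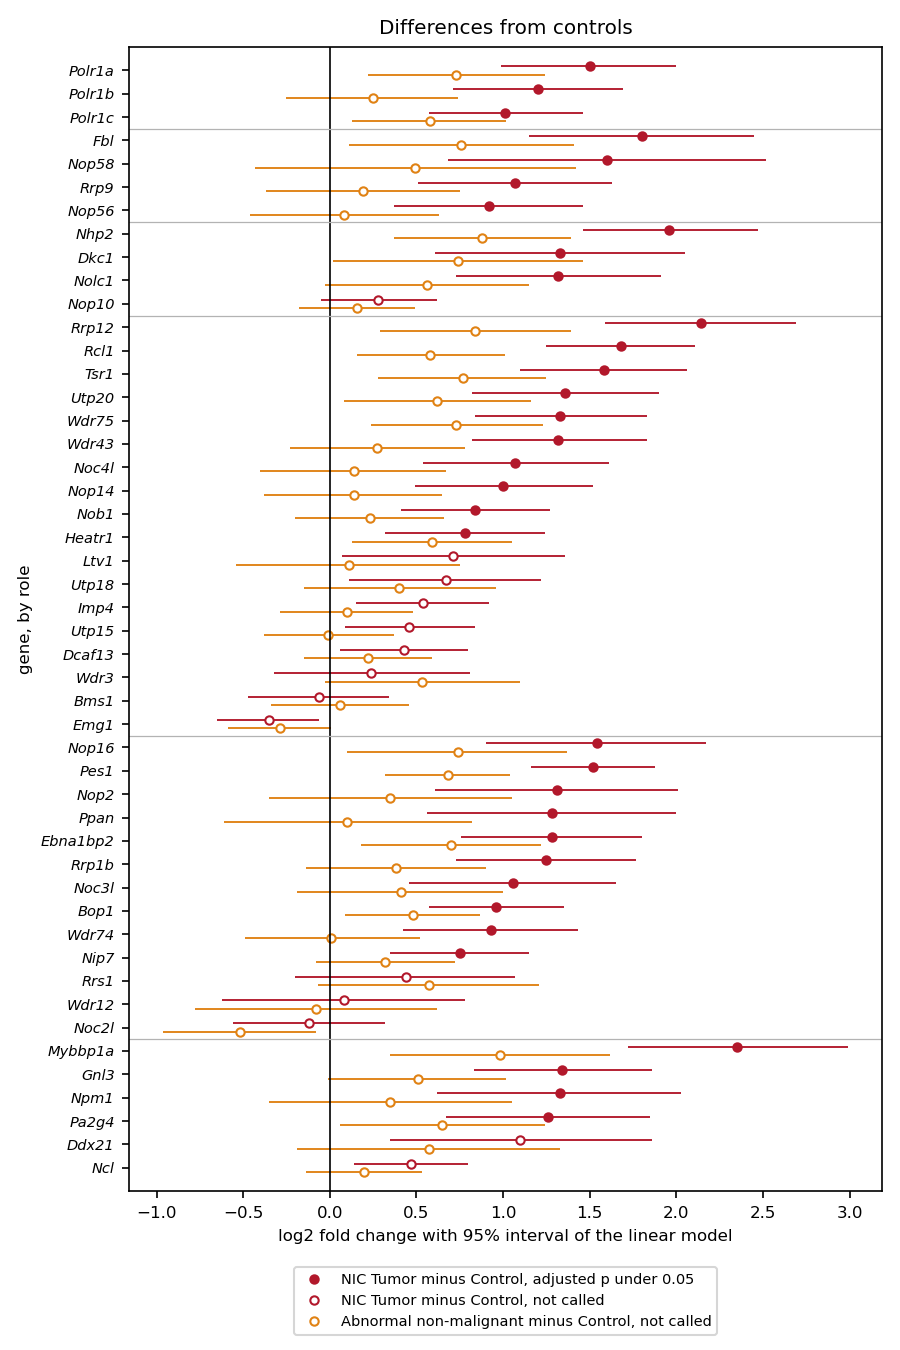
Log2 fold changes of the 48 genes against controls, for NIC tumors and for abnormal non-malignant samples, with 95% intervals from the linear model; filled points passed at an adjusted p under 0.05. The 34 filled points are all tumor values above 0, and no non-malignant value passed.

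The 60S group had 14 genes, of which Mrto4 was not analysed, 10 rose and 3 were not called. Pes1, Bop1 and Wdr12 encode the 3 subunits of the PeBoW complex, which processes the precursor of the large ribosomal RNAs. Pes1 had the smallest adjusted p of all 48 genes, with values of 9.04, 9.32 and 9.02 on NIC Tumor arrays 1, 2 and 3, 8.27, 8.27 and 8.32 on the non-malignant arrays and 7.79, 7.5 and 7.54 on the controls and a tumor-control difference of 1.52 ± 0.16 (SE; adjusted p = 0.000739). The groups did not overlap, and the tumors spanned 0.3. Bop1 had 9.24, 9.74 and 9.45 in the tumors, 9.08, 8.98 and 8.94 in the non-malignant samples and 8.45, 8.45 and 8.67 in the controls and rose by 0.96 ± 0.17 (SE; adjusted p = 0.00838) on the probe set used, whereas a second one was opposed. Wdr12 was not called, with 9.14, 8.83 and 8.4 in the tumors, 8.12, 8.93 and 8.86 in the non-malignant samples and 8.44, 9.27 and 8.43 in the controls. Its groups overlapped, control 2 was the highest array of all, and the 95% interval of the tumor-control difference was -0.62 to 0.78. The difference between Wdr12 and the other subunits was not itself tested.

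Among the other 60S factors, Nop16 had 7.85, 8.64 and 8.43 in the tumors, 7.14, 7.68 and 7.71 in the non-malignant samples and 6.99, 6.27 and 7.06 in the controls, the largest rise (1.54 ± 0.28 SE, adjusted p = 0.00883). Ppan (1.28), the RNA methyltransferase Nop2 (1.31), Ebna1bp2 (1.28), Rrp1b (1.25), Noc3l (1.06), Wdr74 (0.93) and Nip7 (0.75) rose as well. Ppan, Nop2 and Wdr74 each lost the call without tumor 2, tumor 3 or any 1 control. Rrs1, which helps to bring the 5S particle into the large subunit, had 9.51, 10 and 8.8 in the tumors, 9.47, 9.64 and 9.6 in the non-malignant samples and 8.94, 8.75 and 9.31 in the controls and was not called (0.44 ± 0.28 SE, adjusted p = 0.316). Its tumor 3 lay among the controls. Noc2l, on the probe set used, had 8.59, 8.73 and 8.15 in the tumors, 8.14, 7.93 and 8.19 in the non-malignant samples and 8.8, 8.6 and 8.44 in the controls and was not called either (-0.12 ± 0.2 SE, adjusted p = 0.699). Its non-malignant arrays lay below all controls.

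The last group holds nucleolar proteins with several roles, of which 4 of 6 rose. Mybbp1a stood at 10.2, 11.07 and 11.09 on NIC Tumor arrays 1, 2 and 3, 9.73, 9.34 and 9.19 on the non-malignant arrays and 8.65, 8.05 and 8.61 on the controls, a tumor-control difference of 2.35 ± 0.28 (SE; adjusted p = 0.00128). The 3 groups were separate, and tumor 1 lay 0.87 below tumor 2. The GTPase nucleostemin, Gnl3, rose by 1.34 ± 0.23 (SE; adjusted p = 0.00645) and the ErbB3-binding protein Pa2g4 by 1.26 ± 0.26 (SE; adjusted p = 0.0138). Npm1, the abundant nucleolar chaperone nucleophosmin, had 12.66, 12.91 and 12.93 in the tumors, 11.01, 12.29 and 12.26 in the non-malignant samples and 11.74, 11.61 and 11.18 in the controls, a rise of 1.33 ± 0.31 (SE; adjusted p = 0.0215). Non-malignant array 1 was the lowest of all arrays for Npm1, 1.25 below the next non-malignant array, and the call ended without tumor 2, tumor 3, control 2 or control 3. Ncl, nucleolin, had 12.89, 12.65 and 12.61 in the tumors, 12.14, 12.49 and 12.69 in the non-malignant samples and 12.32, 12.15 and 12.25 in the controls and was not called (0.47 ± 0.15 SE, adjusted p = 0.0601). The helicase Ddx21, which acts on both RNA polymerase I and II transcripts, had 9.17, 10.5 and 9.12 in the tumors, 8.74, 9.26 and 9.18 in the non-malignant samples and 8.46, 8.54 and 8.48 in the controls, a difference that did not pass (1.1 ± 0.34 SE, adjusted p = 0.0549). It passed without tumor 1 or tumor 3, with quantile normalization, the filter at the 60th percentile, the mean of its probe sets or array weights, and it ran from 0.65 to 1.34 over the fits without 1 array. Tumor 2 stood alone at the top, and tumors 1 and 3 lay within the range of the non-malignant arrays.

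**Figure D3:**
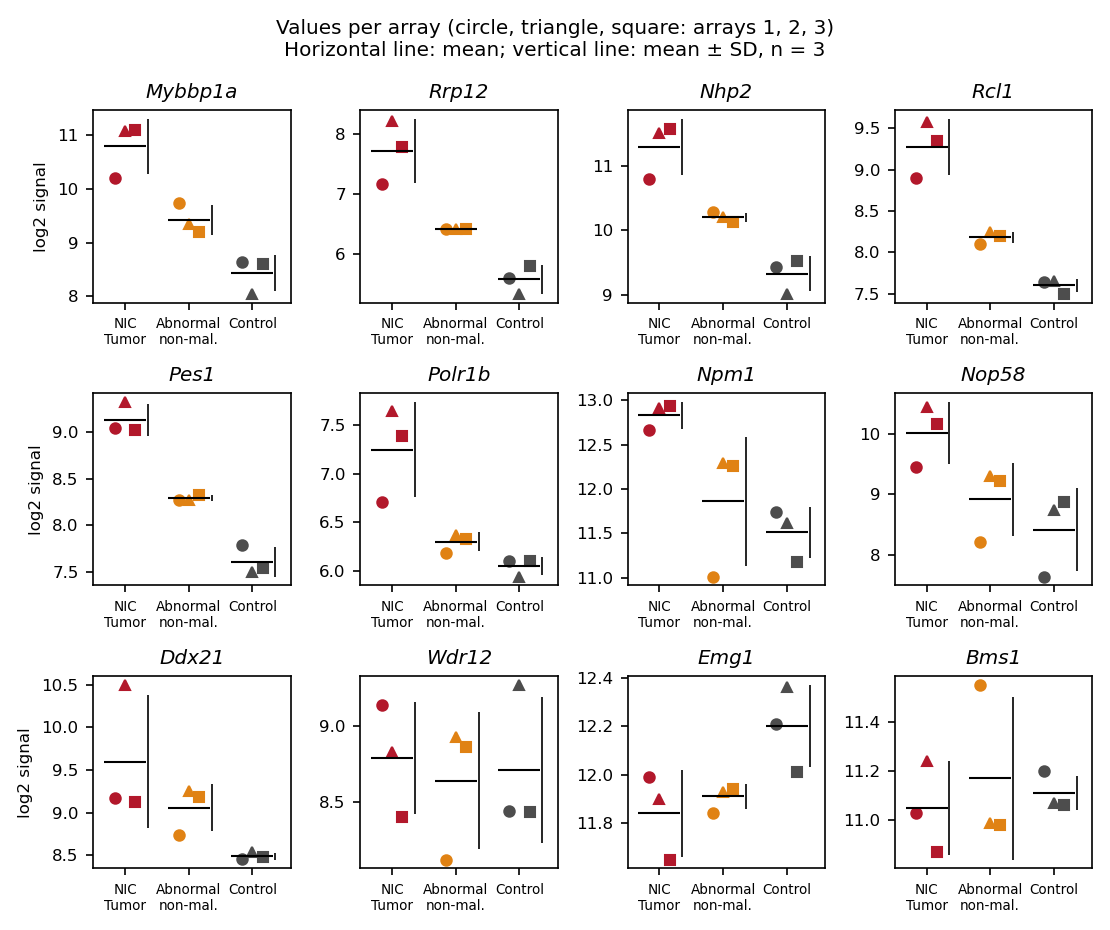
Log2 signal per array for 12 of the genes, with NIC tumors left, abnormal non-malignant samples in the middle and controls right; symbols mark arrays 1, 2 and 3, the horizontal line is the mean and the vertical line the mean ± SD (n = 3). Mybbp1a, Rrp12, Nhp2, Rcl1, Pes1 and Polr1b show 3 separate groups, Npm1 and Nop58 a low non-malignant array 1, Ddx21 a single high tumor, and Wdr12 and Bms1 overlapping groups.

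What is seen without malignancy is asked by setting the abnormal non-malignant samples against the controls. The same genes were mostly higher there by smaller amounts, and no single gene passed. Limma called 0 of the 48 genes, against 2.87% of all genes tested called higher and 0.655% called lower. At an unadjusted p under 0.05, 17 were higher (9.36% of all genes tested were) and 1, Noc2l, was lower. The median log2 fold change was 0.41, against 0.01 over all genes tested. In 29 genes all 3 non-malignant arrays lay above all 3 controls (60.4%, against 17.0% of all genes tested), and in 2, Emg1 and Noc2l, below them (9.16% of all genes tested). The difference was above 0 in 44 genes (51.3% of all genes tested). The smallest adjusted p was that of Pes1 (0.68 ± 0.16 SE, adjusted p = 0.0528), followed by Nhp2 (0.88 ± 0.23 SE, adjusted p = 0.0769). The largest difference was that of Mybbp1a (0.98 ± 0.28 SE, adjusted p = 0.115), and Rrp12 stood 0.84 higher (adjusted p = 0.124). On the probe sets used, Polr1a and Wdr75 each stood 0.73 above the controls without passing, and Noc2l 0.52 below them (adjusted p = 0.254). In the main fit all 3 groups share 1 estimate of the spread. Over all genes tested the root mean square SD was 0.49 in tumors, 0.23 in non-malignant samples and 0.27 in controls. Its part in the counts was not tested. The count differed between fits, and the share of all genes called higher differed with it. Fitted on the non-malignant samples and controls alone, 12 were called higher (6.19% of all genes tested). With array weights 22 were higher and 1 lower (11.5% of all genes higher and 6.73% lower). The count was 7 without tumor 1 (4.15% of all genes), 3 without tumor 2 (3.18%) and 1 without tumor 3 (3.89%). The tumor and the non-malignant comparison share the controls, so a gene's values in them are not independent.

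The comparison of NIC tumors with abnormal non-malignant samples asks what sets the malignant samples apart. Of the 48 genes 7 rose (14.6%, against 1.53% of all genes tested) and none fell (2.7% of all genes tested did), with a median log2 fold change of 0.69, against 0.03 over all genes tested. At an unadjusted p under 0.05, 33 were higher (11.6% of all genes tested were) and 0 lower. The difference was above 0 in 44 genes (53.5% of all genes tested). The 7 were Mybbp1a (1.37 ± 0.28 SE, adjusted p = 0.0345), Rrp12 (1.3 ± 0.25 SE, adjusted p = 0.0269), Rcl1 (1.1 ± 0.19 SE, adjusted p = 0.0199), Nhp2 (1.09 ± 0.23 SE, adjusted p = 0.0351), Wdr43 (1.05 ± 0.22 SE, adjusted p = 0.0374), Polr1b (0.95 ± 0.22 SE, adjusted p = 0.046) and Pes1 (0.84 ± 0.16 SE, adjusted p = 0.0274). All 3 tumors lay above all 3 non-malignant arrays in 32 genes (66.7%, against 12.3% of all genes tested) and below them in none (14.8% of all genes tested). The calls were not stable to the choice of arrays. Without any 1 non-malignant array, or with the mean of non-malignant arrays 2 and 3 taken as a single sample, 0 of the 48 were called by limma (0.0753% to 0.354% of all genes tested were called higher). Without tumor 1 the count was 32, in a fit that called 12.0% of all genes higher and 13.8% lower, so the change was not confined to these genes. It was 1 without tumor 2 (0.527% of all genes), and 2 without tumor 3, control 1 or control 3 (0.444% to 0.956%). Fitted on the 2 groups alone the count was 0 (0.166% of all genes), and with array weights, which gave tumors 1 and 3 weights of 0.24 and 0.18 and tumor 2 a weight of 2.2, it was 42 (24.1% of all genes). Genes not called here included Wdr3 (-0.29), Bms1 (-0.13), Heatr1 (0.19) and Ncl (0.27). The 95% interval of Wdr3 ran from -0.86 to 0.27.

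Set side by side, the group means ran from tumors over non-malignant samples to controls in falling order for 41 of the 48 genes (85.4%, against 25.5% of all genes tested). On the probe sets used, every array kept to that order in 21 of them (43.8%, against 2.73%), with no overlap between any groups. These were Polr1a, Polr1b, Polr1c, Nhp2, Nolc1, Wdr43, Wdr75, Utp20, Rrp12, Nop14, Rcl1, Tsr1, Nob1, Bop1, Pes1, Nip7, Nop2, Nop16, Rrp1b, Mybbp1a and Gnl3. The tumors differed among themselves. Tumor 1 was the lowest tumor in 34 of the 48 genes and tumor 2 the highest in 31. Relative to the mean of the controls, the median over the 48 genes was 0.65 on tumor 1, 1.37 on tumor 2 and 1.3 on tumor 3. On non-malignant arrays 1, 2 and 3 it was 0.36, 0.49 and 0.44, and on controls 1, 2 and 3 it was 0.03, -0.06 and 0.08. Tumor 3 was nevertheless the lowest tumor in 14 genes, among them Wdr3, Rrs1 and Wdr12.

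Several probe sets were on the array for 32 of the 48 genes. Besides the 48 with the highest mean there were 50, of which 44 passed the filter on dim signal. Between tumors and controls 41 of these 44 were above 0, 18 were called higher and 1 lower, in a fit of every probe set whose adjusted p-values are those given here. The shares over all probe sets in that fit are not given here. In the main fit of 1 probe set per gene, 56.4% of all genes tested were above 0, 8.49% were called higher and 7.19% lower. The second Mybbp1a probe set gave a log2 difference of 2.65 and that of Nhp2 1.95. The second Ddx21 probe set was called (1.7, adjusted p = 0.012), unlike the first. For Noc2l the probe sets disagreed, with -0.12 on the one used and 1.39 (adjusted p = 0.00849) on the other. For Bop1 they were opposed, with 0.96 on the one used, and -0.98 (adjusted p = 0.0279) on the other. The second probe set stood at -0.07 for Wdr75 (1.33 on the first), 0.14 for Ebna1bp2 (1.28 on the first) and 0.06 for Nip7 (0.75 on the first), and that of Wdr12 stood at -0.51 (adjusted p = 0.443), in each case without a call. That of Pes1 stood at 0.62 (adjusted p = 0.0559), against 1.52 on the first. In non-malignant samples against controls 38 of the 44 further probe sets were above 0, with 0 called higher and 0 lower. The second Wdr75 probe set stood at -0.64 there, against 0.73 on the first. That of Noc2l stood at 0.52, against -0.52 on the one used. That of Bop1 stood at -0.9 (adjusted p = 0.0985), against 0.48 on the one used. The mean of the Wdr75 probe sets gave 0.63 between tumors and controls, without a call, and 0.05 in non-malignant samples against controls. In tumors against non-malignant samples, 38 of the 44 further probe sets were above 0, 1 was called higher and 0 lower. The called one was that of Mybbp1a (1.81, adjusted p = 0.0348). The second probe set gave 0.17 for Pes1 (adjusted p = 0.592) and 0.44 for Wdr43 (adjusted p = 0.38). The calls of Pes1 and Wdr43 in this comparison ended with the mean of all probe sets. Which transcripts each probe set reads was not examined, so the values of genes such as Noc2l, Bop1 and Wdr75 depend on the probe set.

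**Figure D4:**
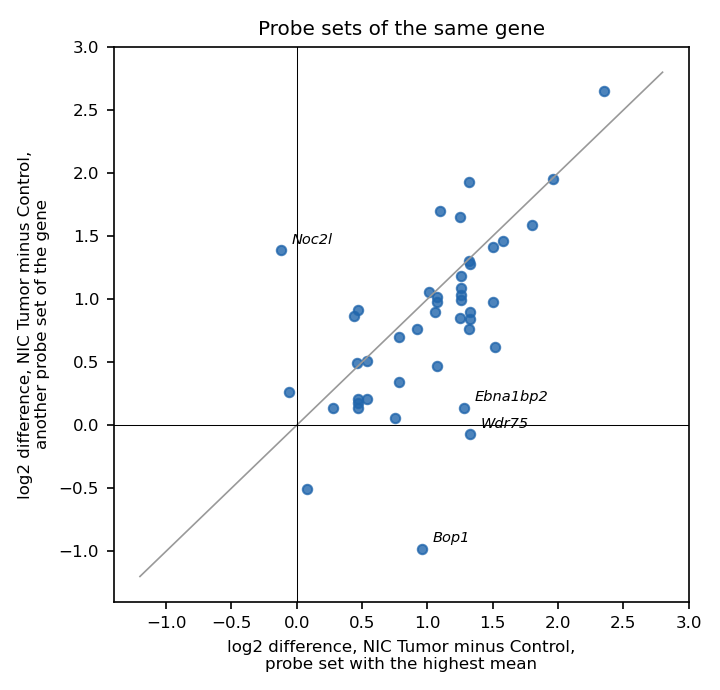
Log2 difference between NIC tumors and controls for the 44 further probe sets that passed the filter (vertical axis) against that of the probe set used for the same gene (horizontal axis); the grey line marks equal values. Most points lie near the line above 0, and the 4 genes named have a further probe set that differs by more than 1.

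In the rest of the pathway, taken from lists of other genes, those called between tumors and controls were also all higher in the tumors. Of 61 other ribosome biogenesis genes, 30 rose in tumors against controls (49.2%, against 8.49% of all genes tested) and none fell, with a median of 0.68. Against controls the non-malignant samples had 0 of the 61 called by limma and a median of 0.29. At an unadjusted p under 0.05, 12 were higher there (9.36% of all genes tested were) and 0 lower. Ddx56, an RNA helicase of 60S assembly, had values of 8.07, 8.33 and 8.47 in the tumors, 7.37, 7.51 and 7.49 in the non-malignant samples and 7.16, 6.95 and 7.09 in the controls (1.22 ± 0.16 SE, adjusted p = 0.00165 between tumors and controls). Rrp15, another 60S factor, had 8.5, 9.43 and 9.08 in the tumors, 7.81, 8.11 and 8.01 in the non-malignant samples and 7.48, 7.27 and 7.29 in the controls (1.65 ± 0.23 SE, adjusted p = 0.00247). Nle1, the 60S factor named Notchless after its genetic interaction with Notch in Drosophila, had 9, 9.62 and 9.38 in the tumors, 8.53, 8.53 and 8.52 in the non-malignant samples and 8.09, 8.03 and 8.15 in the controls (1.25 ± 0.18 SE, adjusted p = 0.00302). In these 3 genes all groups were separate, in the order tumors, non-malignant samples, controls.

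The RNA exosome trims ribosomal RNA precursors from the 3′ end. Of its 11 tested genes 7 rose in tumors against controls (63.6%) and none fell, with a median of 0.74. Exosc2 had 9.6, 9.92 and 10.07 in the tumors, 8.51, 8.76 and 8.76 in the non-malignant samples and 8.64, 8.09 and 8.47 in the controls (1.47 ± 0.2 SE, adjusted p = 0.00227), with the tumors on top. Also called were Exosc5 (1.09 ± 0.22 SE, adjusted p = 0.0111) and Exosc9 (0.87 ± 0.2 SE, adjusted p = 0.0212). Of the further RNA polymerase I subunits and factors, 3 of 12 rose (25%, against 8.49% of all genes tested), with a median of 0.28. These were the subunits Polr1e (0.91 ± 0.2 SE, adjusted p = 0.0158) and Cd3eap (0.99 ± 0.24 SE, adjusted p = 0.0228) and the initiation factor Rrn3 (0.75 ± 0.21 SE, adjusted p = 0.038). Polr1e had 7.68, 8.18 and 7.45 in the tumors, 7.7, 7.94 and 7.83 in the non-malignant samples and 6.77, 6.89 and 6.93 in the controls, and was also called in non-malignant samples against controls (0.96 ± 0.2 SE, adjusted p = 0.0267). None of the 12 was called lower, and 2 were lower at an unadjusted p under 0.05. One of these was the subunit Znrd1, chosen after its values were seen, with 10.03, 9.01 and 9.39 in the tumors, 10.2, 10.14 and 10.05 in the non-malignant samples and 10.15, 10.39 and 10.23 in the controls (-0.78 ± 0.24 SE, adjusted p = 0.053).

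**Figure D5:**
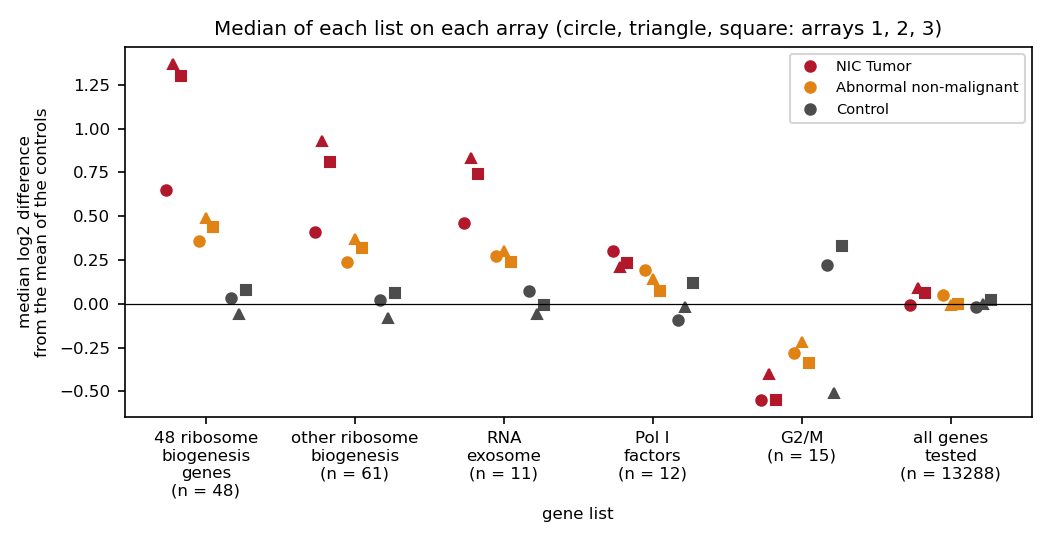
Median log2 difference from the mean of the controls on each array, for the 48 ribosome biogenesis genes, 4 other lists and all genes tested. For the 48 genes the tumors sit at 0.65 to 1.37 and the non-malignant arrays at 0.36 to 0.49, while all genes tested stay between -0.02 and 0.09.

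Myc had values of 8.81, 9.72 and 9.93 in the tumors, 8.34, 8.27 and 8.1 in the non-malignant samples and 7.43, 6.9 and 7.12 in the controls. It rose in the tumors against controls (2.34 ± 0.28 SE, adjusted p = 0.00132) and against non-malignant samples (1.25 ± 0.28 SE, adjusted p = 0.0432). Mycn, its relative, had 12.68, 13.76 and 13.14 in the tumors, 13.27, 13.7 and 13.73 in the non-malignant samples and 8.2, 9.32 and 7.9 in the controls. It rose against controls in tumors (4.72 ± 0.37 SE, adjusted p = 0.000197) and in non-malignant samples (5.09 ± 0.37 SE, adjusted p = 0.0001), with a tumor value not called against non-malignant samples (-0.38 ± 0.37 SE, adjusted p = 0.533). Over all genes tested, 8.49% rose and 7.19% fell in tumors against controls, and 17.4% were higher at an unadjusted p under 0.05. Of 15 tested G2/M genes 6 fell and 0 rose in tumors against controls, with a median of -0.49, and 0 were higher even at an unadjusted p under 0.05. Relative to the mean of the controls their median was -0.55 to -0.4 in tumors, -0.34 to -0.22 in non-malignant samples, and 0.22, -0.51 and 0.33 on controls 1, 2 and 3, so control 2 lay with the tumors. None of the T lineage markers was called higher in tumors against controls. At an unadjusted p under 0.05, 2 of the 14 tested were higher, Cd2 (0.56) and Zap70 (0.39), and 8 were lower. In Cd2 and Zap70 all 3 tumors lay above all 3 controls. The summed linear signal of the T lineage markers was 26146 to 45334 in tumors, 62345 to 63894 in non-malignant samples and 62059 to 77629 in controls. In non-malignant samples against controls 2 of 14 tested were called higher (2.87% of all genes tested were) and 0 lower. These were Cd2 (1.42 ± 0.23 SE, adjusted p = 0.0072) and Zap70 (0.64 ± 0.14 SE, adjusted p = 0.0393). Of the 14, 6 were above 0 there and 8 below. The sum over 15 myeloid markers was 1070 to 2701 in tumors, 1609 to 1787 in non-malignant samples and 874 to 968 in controls, and 1 of 13 tested, Ctss, was called higher in tumors and in non-malignant samples. Erythroid markers, 7 with a probe set, summed to 581, 2186 and 600 on tumors 1, 2 and 3, 609 to 704 in non-malignant samples and 415 to 456 in controls, with 0 of 5 tested called by limma in any comparison (4 higher at an unadjusted p under 0.05 in tumors against controls). The Hba-a1 probe set was dim on all 9 arrays. The sum of 9 B lineage markers was 540 to 802 in tumors, 881 to 959 in non-malignant samples and 596 to 838 in controls. That of 9 thymic stroma markers was 936 to 1472 in tumors, 864 to 950 in non-malignant samples and 814 to 978 in controls, with Col3a1 dim on all 9 arrays. Of the tested B lineage markers 2 fell in tumors against controls, and of the stroma markers 1 rose. In non-malignant samples against controls 1 of 8 tested B lineage markers, Cd22, was called higher (1.99 ± 0.29 SE, adjusted p = 0.00399) and 0 lower. The part of these other cell types and markers in the differences of the ribosome biogenesis genes was not tested.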

How the data were processed

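The authors deposited log2 values of 45101 probe sets on 9 Affymetrix arrays (2.68 to 14.57; array medians 5.67 to 5.77, so no further normalization was added). The base was read from the values. How background, scaling and probe summary were handled is not given in the sources used here. Per the labels, RNA of sorted cells was extracted with TRIZOL and RNeasy columns, amplified and labelled with biotin. The number of arrays limits the precision.

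Of the probe sets 34945 carry 1 gene symbol in the platform annotation, updated through Entrez IDs. A gene was represented by the probe set with the highest mean and tested if its value exceeded the array's 40th percentile on 3 or more arrays. All 9 arrays entered a single model of the 3 group means, fitted with limma 3.58.1 in R 4.3.3 (residual degrees of freedom 6, prior 3.6, variance trend). Tests were two-sided, with Benjamini-Hochberg adjustment over all 13288 genes. The fit was also run on simulated data with known changes. Errors there were drawn independently for each array, so that run does not show how stable the calls on these arrays are. Fold changes are on the log2 scale of the deposited values. Tables were handled in Python 3.11.15 with pandas 2.3.3. The gene lists, roles, tests and alternatives were chosen with earlier results of these data known. Values on every array are given by a rule: in each role the genes with the largest and smallest tumor-control difference, over all of them the 3 with the smallest adjusted p, those called in another comparison, those not called between tumors and controls, and those with a second probe set going the other way by at least 0.5. For the other pathway lists the 3 genes with the smallest adjusted p of each list are named, and Myc and Mycn always. Nop58 and Npm1 were added after their values were seen. No set test was run.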

Additional observations from a re-analysis of the deposited data

How the results depend on the processing

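The 34 genes called higher in tumors against controls were between 19 and 37 with 1 array left out (19 without control 2, 22 without tumor 2) and 0 or 1 fell (Emg1, without tumor 1). The count was 17 at an adjusted p under 0.01 and 21 with only the 2 groups in the fit (3.77% of all genes). The share over all genes is not given here for the threshold of 0.01 or for every probe set tested. Nor is it given for median scaling, the filter at the 60th percentile or no variance trend. With every probe set tested 1 gene was called lower, through the second probe set of Bop1. In non-malignant samples against controls 0 to 7 were called higher with 1 array left out (1.38% to 4.15% of all genes). It was 1 each with median scaling, with a filter at the 60th percentile and with no variance trend. The count was 12 with only the 2 groups (6.19% of all genes), and 22 higher and 1 lower with array weights (11.5% and 6.73%). The median of 0.41 in this comparison was 0.31 with the mean of all probe sets of a gene. In tumors against non-malignant samples the count of 7 (1.53% of all genes) was 0 to 32 with 1 array left out (0.0753% to 12.0%). It was 0 at an adjusted p under 0.01, with only the 2 groups (0.166%) and with non-malignant arrays 2 and 3 averaged (0.0828%). It was 4 with every probe set tested, 42 with array weights (24.1%), and 3 with the replicate number as a block (0.542%). Under the block 34 and 0 were called in the other comparisons (7.28% and 2.45% of all genes were called higher), with Noc3l no longer called and Ddx21 called between tumors and controls. The arrays share only a number: deviations of same-numbered arrays from their group means correlated at -0.05 to 0.22, and not every array correlated best with its own number. Apart from what the fits' construction shows (fewer arrays, more probe sets, 1 spread shared by the groups in a fit), the cause was not tested. The medians of all 3 comparisons kept their sign under every alternative run.

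Single genes were followed for all 48 in tumors against controls and for the 29 with values on every array by rule in the other comparisons. Among these, the genes that changed sign were not called in either fit, except Noc2l and Bop1. With the mean of all probe sets, tumors against controls gave 0.1 for Bms1, -0.01 for Bop1 (its call ended), -0.14 for Wdr12 and 0.63 for Noc2l (adjusted p = 0.0349). The calls of Heatr1, Wdr75 and Nip7 ended there too, without a change of sign, and Utp18 and Ddx21 were called. Non-malignant samples against controls gave 0.29 for Utp15, -0.06 for Imp4 and -0.21 for Bop1, and tumors against non-malignant samples -0.0029 for Heatr1, 0.05 for Bms1 and 0.22 for Rrs1. With array weights the values were 0.07 for Bms1 and 0.05 for Noc2l in tumors against controls, -0.11 for Bms1 and 0.23 for Wdr12 in non-malignant samples against controls, and 0.07 for Wdr3, 0.18 for Bms1, -0.01 for Wdr12 and 0.26 for Rrs1 in tumors against non-malignant samples. Quantile normalization gave 0.04 for Rrs1 in the last comparison and median scaling 0.03 for Utp15 in non-malignant samples against controls. With 1 array left out, tumors against controls ran from -0.1 to 0.35 for Wdr12, -0.00023 to 0.55 for Wdr3, -0.16 to 0.02 for Bms1 and -0.24 to 0.05 for Noc2l. Non-malignant samples against controls ran from -0.13 to 0.16 for Bms1, -0.22 to 0.2 for Wdr12, -0.06 to 0.04 for Utp15 and -0.0018 to 0.16 for Nop56. Tumors against non-malignant samples ran from -0.1 to 0.35 for Wdr12, -0.03 to 0.45 for Utp18, -0.01 to 0.31 for Heatr1, -0.53 to 0.01 for Wdr3, -0.13 to 0.04 for Emg1, -0.41 to 0.19 for Rrs1 and -0.22 to 0.06 for Bms1.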
